A study of Mus musculus with 12 samples.

Results

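The genes described here are 40 integrin, paxillin and focal adhesion genes of the mouse aorta, 21 integrin subunits (13 alpha and 8 beta) and 19 proteins of the inner face of the adhesion. They were chosen as a list of symbols, and all 40 were found among the 25284 genes of the count table. Pxn, which encodes paxillin, was among the genes that the study listed from these mice, so its own difference is a description, and the question was whether its partners in the adhesion differed between the groups in the same way. All mice were male ApoE-/- mice on a C57BL/6 background, 18 weeks old at the end, and received a high fat diet enriched in cholesterol from the start of treatment. The 6 control mice (C1 to C6) received vehicle, cyclodextrin in saline, from osmotic minipumps under the skin, and the 6 others (A1 to A6) received AZ6983, an agonist of the alpha 7 nicotinic acetylcholine receptor, at a daily dose of 50 µmol per kg over 8 weeks. Apolipoprotein E, which these mice lack, serves the uptake of lipoproteins from blood, and its loss brings on atherosclerosis, so the controls carry the deletion and the diet too. Each library was made from the thoracic aorta of 1 mouse with stranded total RNA chemistry after removal of ribosomal RNA.

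Integrins are receptors made of 1 alpha and 1 beta subunit that hold cells to the surrounding matrix or to other cells. On the inner side talins and kindlins bind the beta tail and switch the receptor on, and paxillin, p130Cas, zyxin and the kinases FAK and Src gather at the site and pass signals on. Vinculin, alpha-actinins, tensins and the complex of ILK, PINCH and parvin tie the site to actin. In the vessel wall this machinery holds smooth muscle cells to their matrix and endothelial cells to the basement membrane, and in blood it arms platelets and leukocytes for adhesion.

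Each mouse had between 23810036 and 35864666 counts on genes, and the 40 genes together took 1.03% to 1.36% of them in controls and 0.773% to 1.31% in AZ6983 mice. The share of reads that the counting assigned to no gene, called reads outside genes below, was 10.1% ± 1.55 in controls. In AZ6983 mice it was 12.8% ± 1.36 (SD over 6 mice each), and the means differed (two-sided exact permutation test, p = 0.0108). The groups overlapped, with control C2 at 12.7% and A1 at 11.2%. Such reads may also lie inside genes, in introns or on the other strand, since the annotation and strand setting are not given. As this share differed between the groups, a fit that holds it cannot tell its part from that of the group. The tissue label was checked against 7 smooth muscle markers, which summed to 13537 to 18084 CPM (counts scaled to library size with TMM factors) in controls and 10513 to 18080 in AZ6983 mice, and 8 endothelial markers, which summed to 1027 to 1222 and 1134 to 1346 CPM. The libraries of A3, A4 and A5 stood apart on some measures, and those of C2 and A6 on others. B cell markers summed to 23.2 CPM in C2 and at most 12.1 in any other mouse. Neutrophil markers summed to 240.0 CPM in A6 and at most 53.2 in controls. Skeletal muscle markers summed to 532 CPM in C2, 523 in A5 and 539 in A6, against a control median of 38.3. Platelet markers summed to 240.1 CPM in A3 and at most 54.8 in any other mouse. Thymocyte markers summed to 736 CPM in A4 and at most 26.9 in any other. A5 had the lowest smooth muscle sum, the highest brown fat sum (5222 CPM) and 30.2% of its counts on 10 genes. Brown fat sums of the other AZ6983 mice were 2042 to 2677 CPM, mostly below those of controls (2517 to 4056, median 3780.5, with C6 the lowest). The part of this tissue in the differences below was not tested. The column used for A1 was matched on 3 of the 4 digits of its mouse number, and the other 11 columns on the full number.

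The levels of the 40 genes spanned a wide range. Per kilobase of exon, the only scale on which levels of different genes are compared here, Itga8 came first with 432 ± 37.2 CPM per kb (SD, n = 6 controls) and Itgb1 second with 345 ± 33.0. These encode alpha8 and beta1, which pair into a receptor for nephronectin and fibronectin known from smooth muscle. Actn1, which encodes an alpha-actinin that crosslinks actin, followed with 134 ± 16.2, then Itgb5 with 93.7 ± 12.3 and Tns1 (tensin 1) with 81.9 ± 11.96, and the last 2 overlapped in their spread. Tln1 (70.1 ± 9.78), Actn4 (64.5 ± 11.1), Itga9 (56.3 ± 9.06), Fermt2 (55.9 ± 2.46), Ilk (51.5 ± 5.64) and Vcl (49.7 ± 8.21) followed as a run. In it no neighbour differed from the next by more than the larger of their 2 SDs. Pxn stood at rank 29 of 40 with 3.94 ± 0.230 CPM per kb, between Bcar1 (4.07 ± 0.555) and Tln2 (3.55 ± 1.21), again within the spread. The leukocyte subunit Itgal was at 0.520 ± 0.277 CPM per kb, and Itgb6 (0.0387 ± 0.0721) and Fermt1 (0.00414 ± 0.00501), genes of epithelial adhesions, were near 0.

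**Figure D1:**
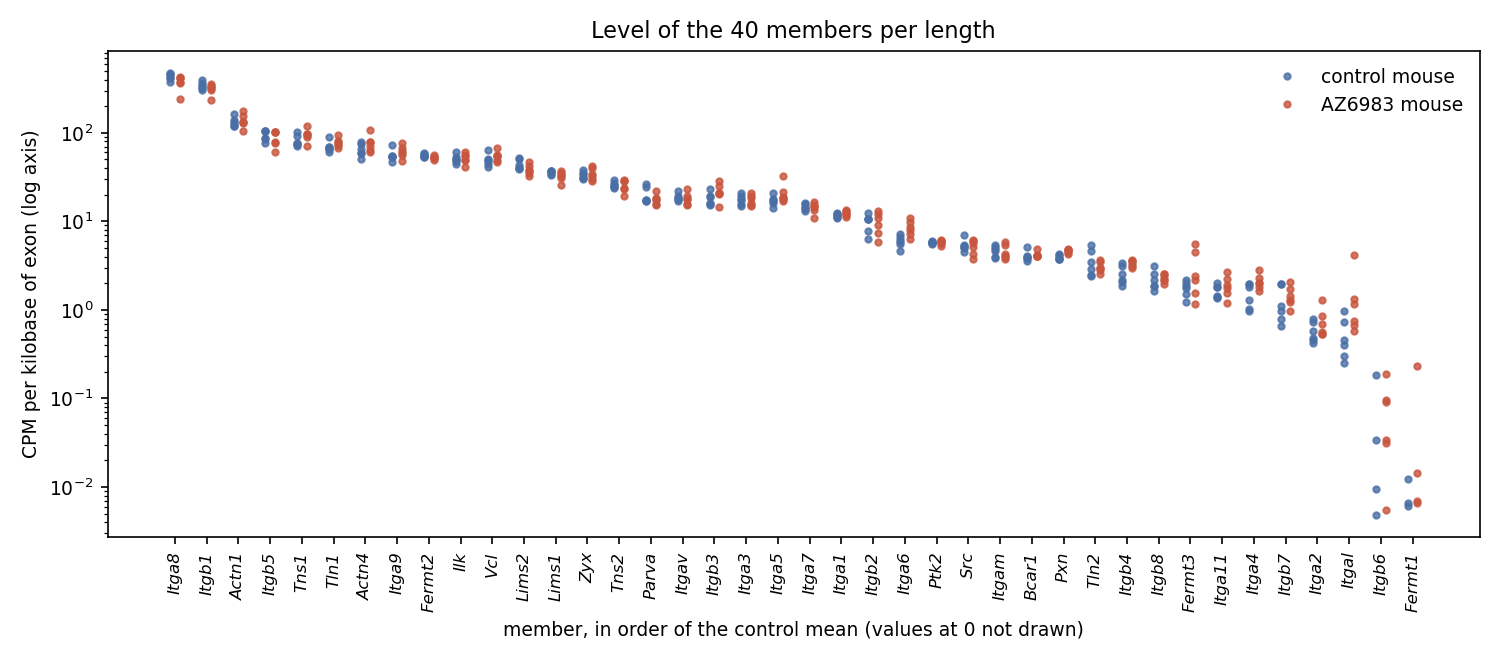
CPM per kilobase of exon (vertical, log axis) of each of the 40 genes in the 6 control mice (blue) and the 6 AZ6983 mice (red), ordered by the control mean. Itga8 and Itgb1 lie above 200 CPM per kb in every mouse, Pxn sits near 4, and the AZ6983 points of Itgal reach higher than its control points.

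Of the 40 genes, 38 passed the filter on low counts and were tested. None passed 10% FDR (edgeR quasi-likelihood test, Benjamini-Hochberg over 15857 genes), as none of all genes did (0.00%), and their adjusted p-values ran from 0.394 to 0.999. DESeq2, the test that the study used, called 1 of them, Pxn, and limma-voom called 0. At an unadjusted p under 0.05, 5 genes were higher in AZ6983 mice (Pxn, Itga6, Itgb4, Itga4 and Itgal) and 0 were lower, that is 5 of 38, where 7.38% of all genes tested were higher and 2.81% lower (10.2% in all). The fitted log2 fold change was above 0 for 24 of the 38 genes and below 0 for 14, against 52.4% above 0 over all genes. Its median over the 38 was 0.05, against 0.01 over all 15857 genes. The values ran from -0.21 (Itga8) to 1.49 (Itgal), and 30 of them lay within 0.25 of 0. Without A3 and A4, 7 genes passed an unadjusted p of 0.05, 5 higher (Pxn, Itga6, Itgb4, Actn4 and Itga11) and 2 lower (Lims1 and Lims2), where 6.63% of the 16114 genes of that fit were higher and 3.47% lower.

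Pxn was the 1 gene of the 38 whose groups did not overlap, where 0.410% of all genes had no overlap and 0.259% had every AZ6983 mouse above every control. Paxillin is the LIM domain adaptor that FAK, vinculin and the GIT proteins bind in the adhesion. The gene lies on chromosome 5, at chr5:115506676-115555987 on the plus strand (GRCm38), and shares part of its span with Gm13840 on the same strand. Its level in controls C1 to C6 was 30.8, 34.2, 30.8, 30.6, 32.4 and 34.9 CPM. In AZ6983 mice A1 to A6 it was 35.3, 39.4, 39.2, 39.1, 39.7 and 37.4 CPM. The lowest AZ6983 mouse, A1, lay just above the highest control, C6, and the other 5 stood clear of the controls. The means were 32.3 ± 1.88 and 38.3 ± 1.67 CPM (SD over 6 mice each), resting on 823 to 1468 counts per mouse, and the coefficient of variation was 5.83% in controls and 4.34% in AZ6983 mice. The fitted difference was 0.25 on the log2 scale (SE 0.0524, 95% interval 0.13 to 0.37), an increase of 18.8%, with an adjusted p of 0.394 by edgeR's quasi-likelihood test with Benjamini-Hochberg adjustment. DESeq2, the test of the study, gave an adjusted p of 0.00777. These values are those of a gene the study picked from the same mice, and they support nothing about the others. With the share of reads outside genes in the model the log2 difference was 0.16 (SE 0.0668), and without the mouse whose column was matched in part (A1) it was 0.27 (SE 0.0518).

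**Figure D2:**
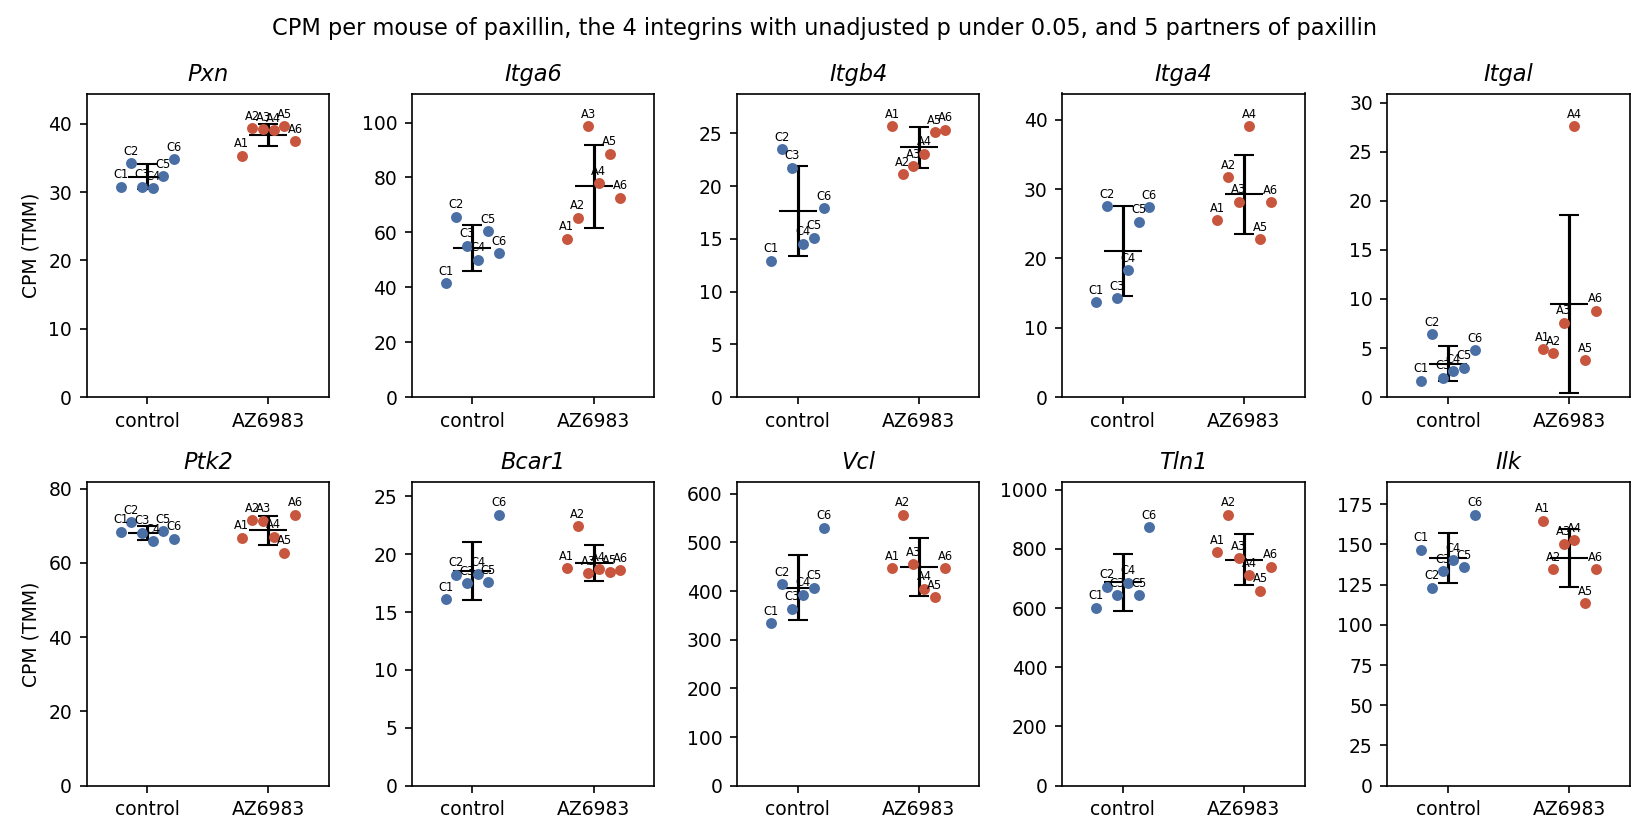
CPM (vertical, from 0) per mouse of Pxn, of the 4 integrin genes with an unadjusted p under 0.05 and of 5 partners of paxillin, in control mice (blue, C1 to C6) and AZ6983 mice (red, A1 to A6), with the mean and SD of each group in black. The 6 AZ6983 values of Pxn lie above all 6 controls, the integrins overlap between the groups, A4 stands alone for Itgal, the groups of Ptk2 and Ilk lie over each other, and those of Bcar1 overlap through C6.

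In all 12 mice the groups overlapped for each of paxillin's partners among the adaptors and kinases. Ptk2, which encodes FAK, the tyrosine kinase that phosphorylates paxillin, was at 65.8 to 70.9 CPM in controls (median 68.3) and 62.8 to 73.0 in AZ6983 mice (median 69.2). Its log2 difference was 0.01 with a 95% interval of -0.09 to 0.12. Src, the kinase that acts with FAK, was at 19.7 to 30.5 CPM (median 22.6) and 16.3 to 27.0 (median 23.6), with a log2 difference of -0.06. Bcar1, which encodes the scaffold p130Cas, was at 16.1 to 23.4 CPM (median 17.9) in controls and 18.4 to 22.4 (median 18.7) in AZ6983 mice, and 6 of 6 AZ6983 mice lay above the control median. Its log2 difference was 0.05 (SE 0.0890). The overlap rested on C6, the highest of all mice. Without it the groups of Bcar1 did not overlap, as for 1.3% of all genes in that fit, and the difference was 0.13 (SE 0.0678), short of an unadjusted p of 0.05. Zyx, the zyxin of mature adhesions and the most counted of these adaptors and kinases, was at 163 to 203 CPM (median 178) and 154 to 227 (median 179), with a log2 difference of 0.05 (SE 0.0984, edgeR quasi-likelihood test, Benjamini-Hochberg adjusted p = 0.883).

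Among the other 37 genes tested, the 95% interval held 0 for 33, where 10.2% of all genes tested had an unadjusted p under 0.05. Of the 37 intervals, 17 held both 0 and the fitted value of Pxn, and 16 lay wholly below that value, taken without its own error. Those 17 do not tell whether the gene followed Pxn. No test of a difference between Pxn and another gene was made. A low spread in both groups was not particular to Pxn, since Fermt2, Ptk2 and Itga1 also had coefficients of variation under 10% in both, as did 20.2% of all genes tested.

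**Figure D3:**
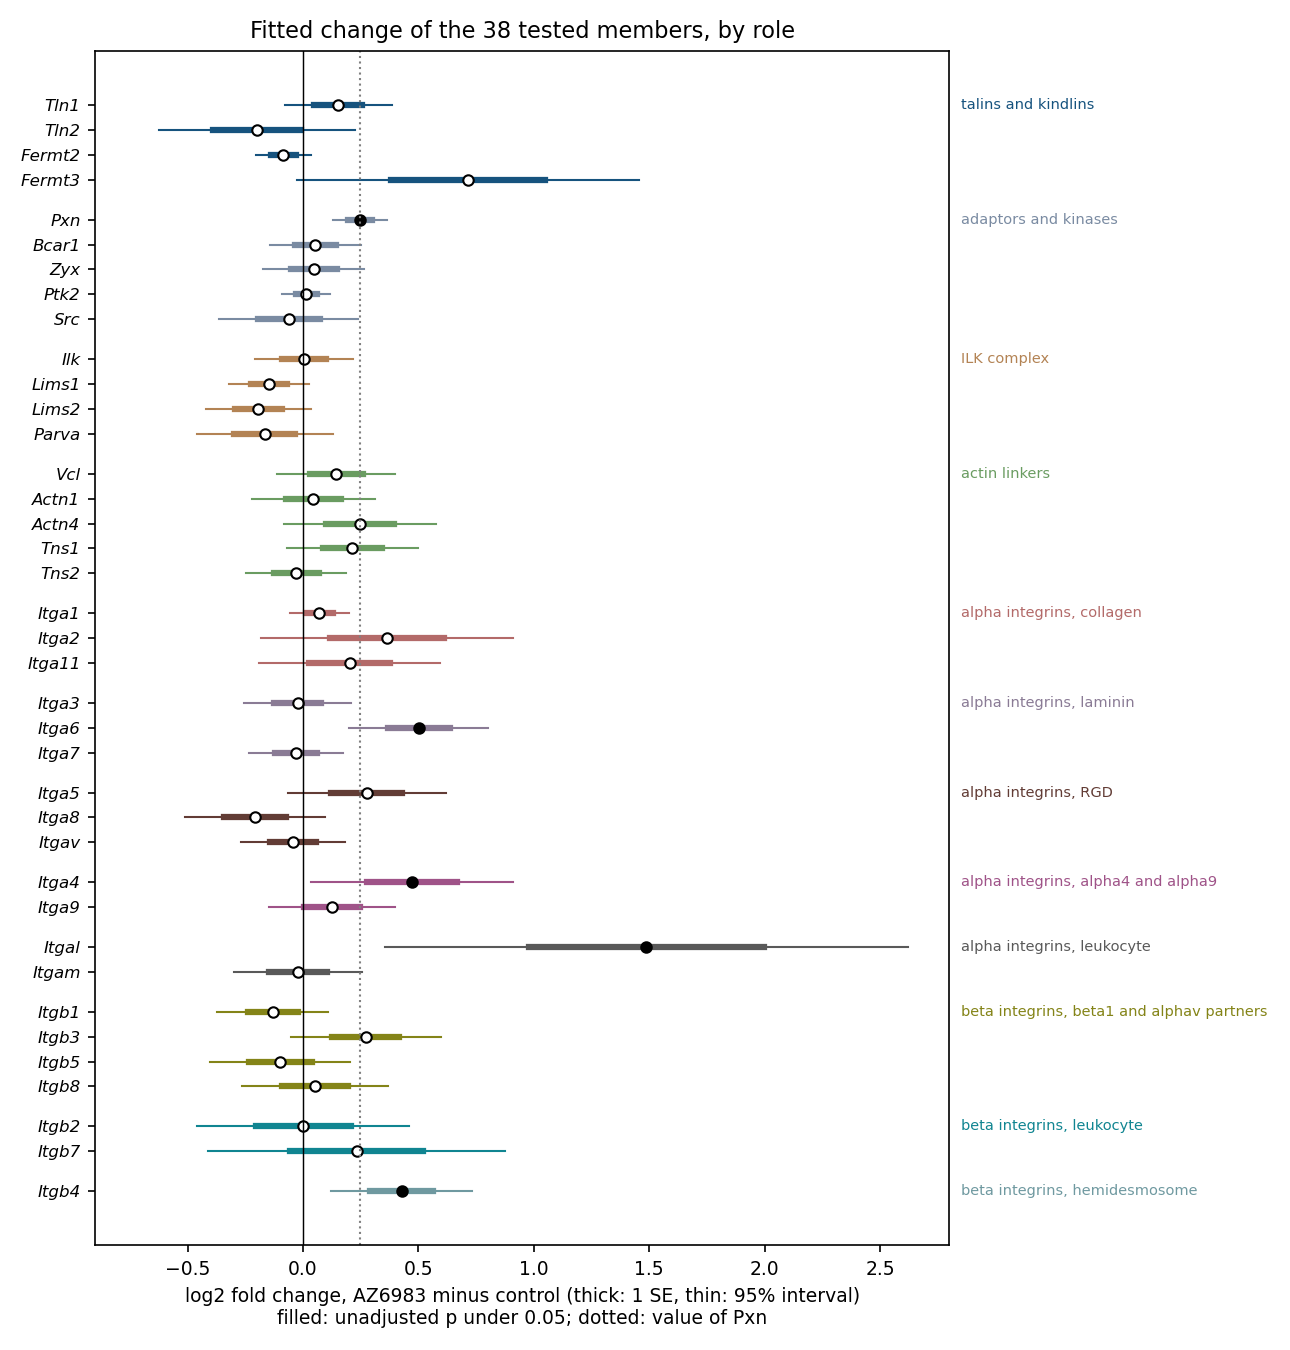
Fitted log2 fold change, AZ6983 minus control (horizontal), of the 38 tested genes grouped by role (vertical), with 1 SE as thick and the 95% interval as thin lines, filled points for an unadjusted p under 0.05 and the value of Pxn as a dotted line. The intervals of 33 of the 37 genes other than Pxn cross 0, where 10.2% of all genes tested had an unadjusted p under 0.05. The ILK complex lies near or left of 0, and Itgal has the widest interval.

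The talins and kindlins, which switch integrins on, gave 0 of 4 tested genes at an unadjusted p under 0.05. Tln1, the talin of most cells, was at 602 to 874 CPM in controls (median 659) and 659 to 916 in AZ6983 mice (median 755). The groups overlapped, with C6 alone high among the controls, and the log2 difference was 0.15 (SE 0.104, edgeR quasi-likelihood test, Benjamini-Hochberg adjusted p = 0.591). Tln2, its paralog of muscle and nerve, was at 44.7 to 98.7 CPM (median 58.7) and 46.6 to 67.7 (median 54.9), with the difference at -0.20 (SE 0.191) and, without C3, its highest mouse, at -0.05 (SE 0.158). Fermt2, the kindlin of muscle and fibroblasts, was at 278 to 308 CPM (median 288) and 254 to 296 (median 274), and 4 of 6 AZ6983 mice fell short of the lowest control, with a log2 difference of -0.08 (SE 0.0537). Fermt1, the kindlin of epithelia, had at most 2 counts in any control and at most 50 in an AZ6983 mouse, the 50 in A4, and was not tested. The 6 epithelial markers summed to 100.5 CPM in A4 and at most 12.5 in any other mouse, and their part in the Fermt1 counts was not tested.

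Fermt3, the kindlin of blood cells, had the largest value and the widest error of the 4. It was at 7.17 to 12.7 CPM in controls (median 10.6) and 6.82 to 31.9 in AZ6983 mice (median 13.2). Its 2 high values, 31.9 in A3 and 26.2 in A4, are those of the mice with high platelet and thymocyte markers, and the 4 other AZ6983 mice ran from 6.82 to 13.8 CPM. The log2 difference was 0.72 (SE 0.333) with all mice and 0.04 (SE 0.207) without A3 and A4. The part of these cells in the difference was not tested beyond that. In bulk tissue, fewer cells of a type and less RNA per cell cannot be told apart.

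The ILK complex joins the beta tail to actin through the pseudokinase ILK, the PINCH proteins of Lims1 and Lims2, and alpha-parvin. Parva, with the most counts of these 4 genes, was at 173 to 268 CPM in controls (median 175) and 154 to 222 in AZ6983 mice (median 179), a log2 difference of -0.17 (SE 0.132, edgeR quasi-likelihood test, Benjamini-Hochberg adjusted p = 0.647) that was -0.08 (SE 0.115) without C3, its highest mouse. Ilk was at 123 to 169 CPM (median 138) and 113 to 165 (median 143), a difference of 0.01. Lims1 was at 165 to 183 CPM (median 177) in controls and 127 to 181 (median 161) in AZ6983 mice, and Lims2 at 119.8 to 159 (median 128) and 99.97 to 144 (median 115). For each of the 2, 4 of 6 AZ6983 mice fell short of the lowest control, with log2 differences of -0.15 (SE 0.0775) and -0.19 (SE 0.102) that did not reach an unadjusted p of 0.05. A5, the mouse with the lowest smooth muscle markers, was lowest in all 4 genes of the complex. Without it the values of Lims1 and Lims2 were -0.11 (SE 0.0590) and -0.17 (SE 0.104), and without A3 and A4 they were -0.25 (SE 0.0822) and -0.27 (SE 0.112), past an unadjusted p of 0.05.

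Vinculin, the alpha-actinins and the tensins link talin and the integrin tails to actin filaments. The promoters of Vcl and of Fermt2 are shown because they are 2 of the 3 among these genes that hold a CArG box, the site of serum response factor, which drives many actin and smooth muscle genes. The first 100 bases of each window are given from GRCm38.p6 (RefSeq), 5′ to 3′ on the strand of the gene, starting 250 bases before the RefSeq start, with the box in capitals. The Vcl stretch is chr14:20929148-20929247 on the plus strand, and its box ends 217 bases before the start. The Fermt2 stretch is chr14:45530216-45530315 on the minus strand, and its box ends 194 bases before the start.
Vcl: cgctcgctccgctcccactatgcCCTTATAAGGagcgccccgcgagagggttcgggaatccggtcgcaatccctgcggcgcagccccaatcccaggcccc
Fermt2: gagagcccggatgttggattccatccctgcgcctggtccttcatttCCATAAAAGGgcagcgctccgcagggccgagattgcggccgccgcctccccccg

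A window of 250 bases before to 50 after the start was found for 29 of the 40 genes, and a CArG box, searched on both strands, lay in 3 of the 29 (10.3%, the third being Itgb6), against 1.81% of 27025 genes. GGGCGG, the core of a GC box, lay in 19 of 29 (65.5%, against 38.2% of all), and TATAAA in 1 of 29 (Lims1, 3.45%, against 15.7%), both searched on both strands and chosen after the first motif had been counted. Matches are letters in a window and not measured sites. No window was found for Pxn.

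The 5 actin linkers gave 0 genes at an unadjusted p under 0.05, and 4 of the 5 had a log2 difference above 0. Tns1, the most counted, was at 1133 to 1629 CPM in controls (median 1223) and 1147 to 1915 in AZ6983 mice (median 1533), a difference of 0.21 (SE 0.127, edgeR quasi-likelihood test, Benjamini-Hochberg adjusted p = 0.557). Vcl was at 335 to 530.4 CPM (median 399.7) and 387 to 557 (median 447), a difference of 0.14. Actn4 was at 307 to 487 CPM (median 380.5) and 370.1 to 657 (median 456), and Actn1 at 668 to 903 (median 718) and 585 to 971 (median 733). Their differences were 0.25 (SE 0.147) and 0.05 (SE 0.120). Tns2 was at 129.7 to 159 CPM (median 138) and 106 to 158 (median 143), with a difference of -0.03. In Tns1, Vcl, Actn1 and Actn4 the highest mouse was A2, and C6 was the highest control of Vcl, Actn1, Actn4 and Tns1. Without C6, Tln1, Vcl, Tns1 and Itgb3 passed an unadjusted p of 0.05 as well, with log2 differences of 0.23, 0.23, 0.28 and 0.35, which made 9 of 38 higher, where 8.51% of all genes were higher in that fit. Without A2 the differences of Tln1, Vcl, Tns1 and Actn4 were 0.08, 0.06, 0.12 and 0.11, and none of the 4 reached an unadjusted p of 0.05. With the share of reads outside genes in the model, those of Vcl and Actn4 were -0.08 and -0.11.

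The alpha subunits set what an integrin binds. Of the collagen receptors, Itga1, the alpha1 chain of smooth muscle, was at 205 to 228 CPM in controls (median 217) and 207 to 248 in AZ6983 mice (median 227), with a log2 difference of 0.07 (SE 0.0571, edgeR quasi-likelihood test, Benjamini-Hochberg adjusted p = 0.647). Itga11, the collagen receptor of fibroblasts, was at 7.00 to 10.3 CPM (median 8.33) and 6.12 to 13.7 (median 9.39), a difference of 0.20 (SE 0.176) that was 0.06 (SE 0.157) without A2. Itga2, the collagen receptor of platelets and epithelia, was at 3.04 to 5.68 CPM (median 3.78) and 3.80 to 9.21 (median 4.45), with its highest value in A3. Its difference was 0.36 (SE 0.246) and, without A3, 0.14 (SE 0.198).

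Of the laminin receptors, Itga6 was higher in AZ6983 mice at an unadjusted p under 0.05, and the values of Itga3 and Itga7 lay near 0. Itga6 encodes alpha6, which pairs with beta1 in endothelium and platelets and with beta4 in hemidesmosomes and nerve. It was at 41.6 to 65.7 CPM in controls (median 53.8) and 57.7 to 98.7 in AZ6983 mice (median 75.2). The highest control was exceeded by 4 of 6 AZ6983 mice, and A1 and A2 lay within the control range. The log2 difference was 0.50 (SE 0.135, 95% interval 0.20 to 0.80, edgeR quasi-likelihood test, Benjamini-Hochberg adjusted p = 0.447), 0.37 (SE 0.135) without A3 and A4, and 0.34 (SE 0.187) with the share of reads outside genes in the model, which no longer reached an unadjusted p of 0.05. Itga7, the laminin receptor of muscle, was at 105 to 131 CPM (median 117) and 88.9 to 135 (median 118), a difference of -0.03 (SE 0.0917, edgeR quasi-likelihood test, Benjamini-Hochberg adjusted p = 0.924). Itga3 was at 85.0 to 120.0 CPM (median 101) and 84.3 to 119 (median 98.3), a difference of -0.02.

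Itgb4, whose product beta4 pairs with alpha6 alone and anchors hemidesmosomes, was the 1 beta subunit with an unadjusted p under 0.05. It was at 12.9 to 23.5 CPM in controls (median 16.5) and 21.1 to 25.7 in AZ6983 mice (median 24.1). The AZ6983 mice lay close together, and 3 of them were above the highest control, while C2 (23.5) and C3 (21.8) reached into their range. The log2 difference was 0.43 (SE 0.137, edgeR quasi-likelihood test, Benjamini-Hochberg adjusted p = 0.447), 0.45 (SE 0.159) without A3 and A4 and 0.23 (SE 0.175) with that share in the model. On the levels of their genes in these mice, Itga6 was at 6.01 ± 0.929 CPM per kb in controls and 8.51 ± 1.67 in AZ6983 mice, and Itgb4 at 2.51 ± 0.604 and 3.38 ± 0.277 (SD, n = 6). Schwann cells carry alpha6 beta4, and their 6 markers summed to 82.4 to 173 CPM in controls and 82.1 to 161 in AZ6983 mice. The endothelial sums given above overlapped too, with those of 4 AZ6983 mice past the highest control, and the part of these cells in the difference was not tested.

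The receptors of the RGD sequence, carried by fibronectin and vitronectin, gave 0 of 3 genes at an unadjusted p under 0.05. Itga8, the most counted of all 40 genes, was at 2759.8 to 3506 CPM in controls (median 3227) and 1779.5 to 3152 in AZ6983 mice (median 2913). A5 stood far below the others, and the log2 difference was -0.21 (SE 0.136, edgeR quasi-likelihood test, Benjamini-Hochberg adjusted p = 0.583) with it and -0.13 (SE 0.0870) without it. Itga5, the fibronectin receptor chain, was at 69.5 to 104 CPM (median 84.7) and 83.0 to 161 (median 91.9), the 161 in A2 alone. Its difference of 0.28 (SE 0.153) was 0.09 (SE 0.0938) without A2. Itgav was at 185 to 239 CPM (median 194) and 164 to 247 (median 192), a difference of -0.04.

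Itga4 and Itga9 form a branch of their own, and alpha4 carries leukocytes to VCAM-1. Itga4 was at 13.7 to 27.5 CPM in controls (median 21.8) and 22.8 to 39.1 in AZ6983 mice (median 28.2), and 4 of 6 AZ6983 mice exceeded every control. The log2 difference was 0.47 (SE 0.196, edgeR quasi-likelihood test, Benjamini-Hochberg adjusted p = 0.466), and it was 0.37 (SE 0.190) without A4, the highest mouse, and 0.10 (SE 0.237) with that share in the model, neither of which reached an unadjusted p of 0.05. With 1 mouse left out, p was at or above 0.05 in 5 of 12 fits. Its span, chr2:79255426-79333123, overlaps Cerkl on the other strand, as those of Itga6 (chr2:71745616-71858416) and Itgb4 (chr11:115974709-116008412) overlap Gm17250 and B230344G16Rik, and the strand setting of the counting is not given in the sources used here, so reads of such pairs may be mixed. Itga9 was at 364 to 568 CPM (median 417) and 372 to 585 (median 467), a difference of 0.13 (SE 0.122, edgeR quasi-likelihood test, Benjamini-Hochberg adjusted p = 0.709), with C6 alone high among the controls.

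Itgal had the largest fitted difference of the 38 genes and the widest spread. It encodes the alpha chain of LFA-1, the lymphocyte receptor for ICAM-1, and lies at chr7:127296260-127335138. Counts ran from 48 to 162 in controls and 93 to 1038 in AZ6983 mice, that is 1.67 to 6.40 CPM (median 2.83) and 3.80 to 27.6 CPM (median 6.25). A4 alone was at 27.6 CPM, the other AZ6983 mice were at 3.80 to 8.80, and 3 of 6 exceeded every control. The log2 difference was 1.49 (SE 0.509, edgeR quasi-likelihood test, Benjamini-Hochberg adjusted p = 0.450). It was 0.79 (SE 0.345) without A4 and 0.68 (SE 0.375) without A3 and A4, where an unadjusted p of 0.05 was not reached. The 6 T cell markers summed to 3.13 to 16.6 CPM in controls, to 6.99 to 14.9 in 5 AZ6983 mice and to 316 in A4, and the 4 thymocyte markers to 0.149 to 17.7, 0.396 to 26.9 and 736, with Rag2 and Ptcra at 0 in at least 1 mouse of each group and Dntt at 0 in at least 1 control. Neutrophil markers summed to 16.7 to 53.2 CPM in controls and 34.2 to 240.0 in AZ6983 mice. Their part in the Itgal difference that remains without A4 was not tested.

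The other leukocyte subunits gave values near 0 or with wide errors. Itgb2, which encodes the beta2 chain that alphaL requires at the surface, was at 19.2 to 38.3 CPM in controls (median 32.5) and 17.9 to 39.5 in AZ6983 mice (median 30.7), with a log2 difference of 0.0019 (SE 0.206, edgeR quasi-likelihood test, Benjamini-Hochberg adjusted p = 0.999). Itgam, the alpha chain of macrophages and neutrophils, was at 19.5 to 27.4 CPM (median 23.8) and 19.1 to 29.4 (median 21.2), a difference of -0.02 (SE 0.125, edgeR quasi-likelihood test, Benjamini-Hochberg adjusted p = 0.961). Macrophage markers summed to 619 to 1110.2 CPM in controls and 543 to 1052 in AZ6983 mice. Itgb7, the lymphocyte partner of alpha4, was at 1.81 to 5.44 CPM (median 2.90) and 2.70 to 5.80 (median 3.78), a difference of 0.23 (SE 0.289).

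**Figure D4:**
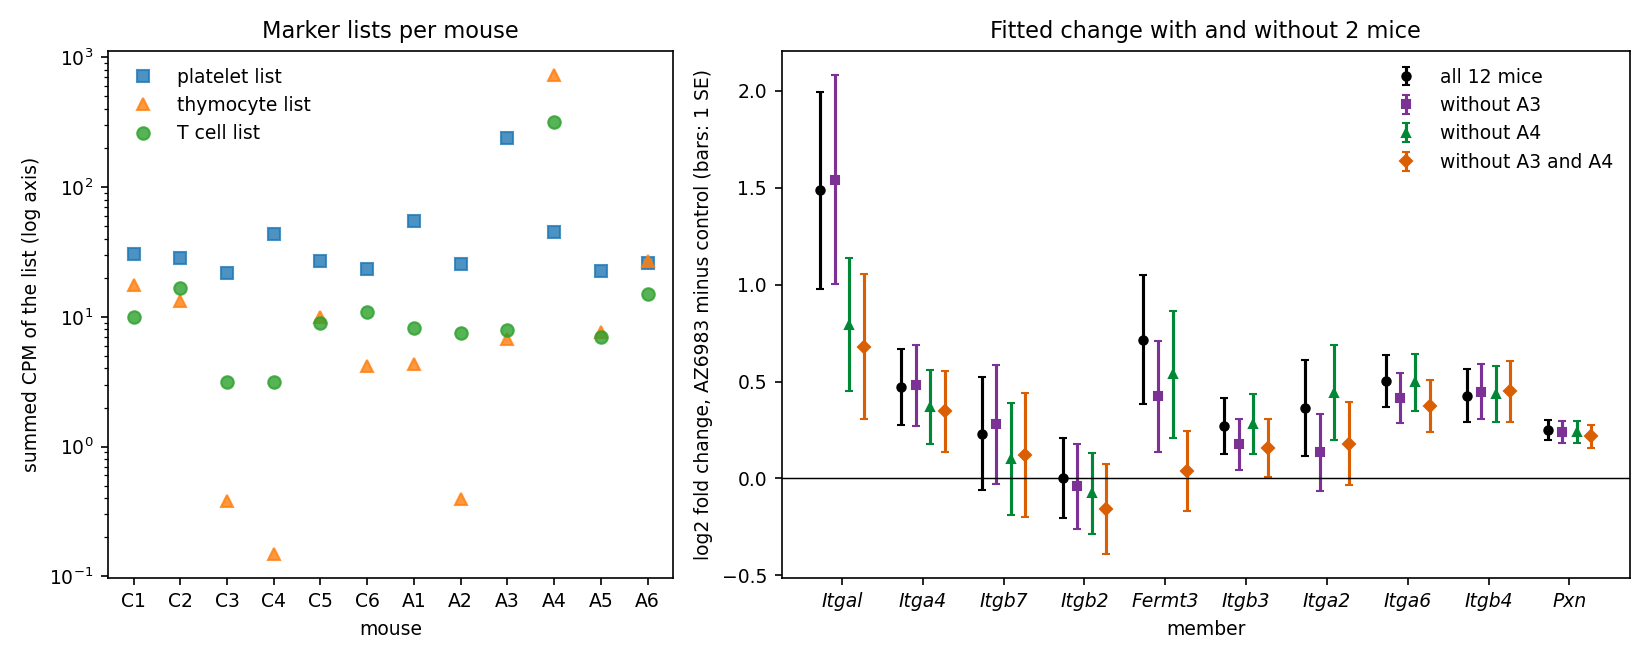
Left, summed CPM (log axis) of the platelet, thymocyte and T cell marker lists in each mouse. Right, fitted log2 fold change, AZ6983 minus control, with 1 SE, of 10 genes with all 12 mice and without A3, A4 or both. A3 is high for platelet and A4 for thymocyte and T cell markers, Fermt3 goes from 0.72 to 0.04 and Itgal from 1.49 to 0.68 without both, and Itgb4 and Pxn keep values of 0.45 and 0.22.

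The remaining beta subunits are the partners of many alpha chains. Itgb1, the partner of every alpha chain of the list outside the leukocyte pair, was at 1245 to 1617 CPM in controls (median 1383) and 953 to 1455 in AZ6983 mice (median 1332). A5 was the lowest, and the log2 difference was -0.13 (SE 0.108, edgeR quasi-likelihood test, Benjamini-Hochberg adjusted p = 0.660) with it and -0.08 (SE 0.0836) without it. Itgb3, the partner of alphaV and of the platelet chain alphaIIb, was at 90.4 to 136 CPM (median 103) and 86.8 to 169 (median 124), with A3 the highest. Its difference was 0.27 (SE 0.145) and, without A3, 0.18 (SE 0.132). Itgb5 was at 270.1 to 373 CPM (median 340.1) and 218 to 368 (median 321), and Itgb8, the subunit that activates latent TGF-beta, at 18.2 to 34.8 (median 22.4) and 21.7 to 28.1 (median 25.1), with differences of -0.10 and 0.05. Itgb6, of epithelia, had between 0 and 33 counts in controls, between 1 and 36 under AZ6983, and was not tested.

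Single mice left their mark on the whole set. A5 was the lowest of the 12 mice in 18 of 38 genes (47.4%, against 21.5% of all genes tested) and A2 the highest in 13 (34.2%, against 12.6%). C1 was the lowest in 12 (31.6%, against 13.1%) and C6 the highest in 6 (15.8%, against 9.55%). Relative to the control mean, the median log2 CPM over the 38 genes was 0.28 in both C6 and A2 and -0.20 in A5, so that the controls and the AZ6983 mice each held a mouse with most adhesion genes high. In at least 5 of 6 AZ6983 mice the level lay above the control median for 18 of 38 genes, against 23.7% of all genes tested.

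**Figure D5:**
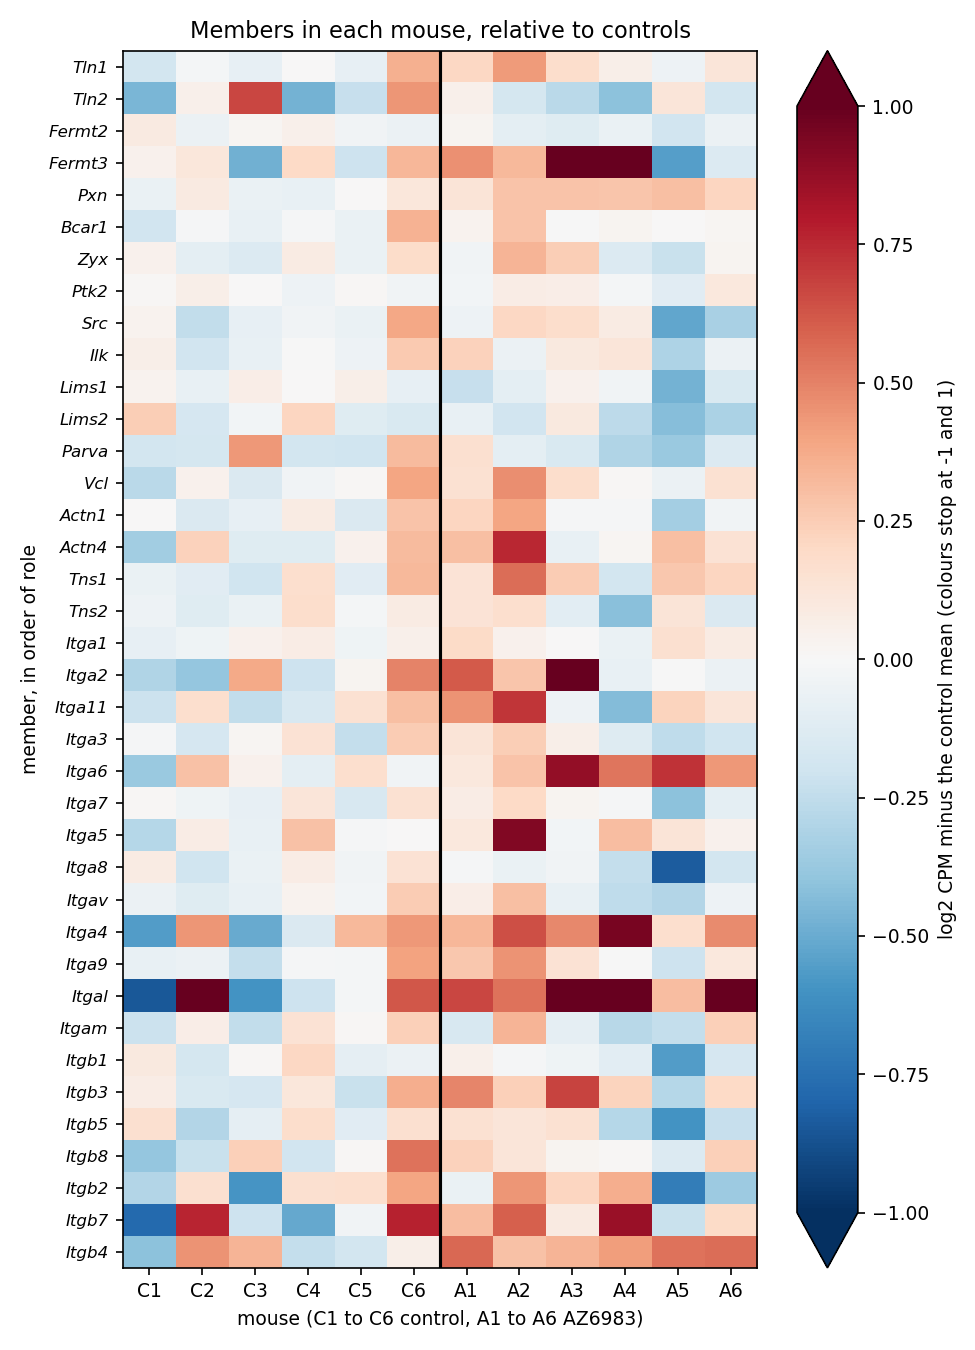
Log2 CPM minus the control mean (colour, stopping at -1 and 1) of the 38 tested genes (rows, by role) in the 12 mice (columns). C6 and A2 are mostly red and A5 mostly blue, while the row of Pxn is red in all 6 AZ6983 mice.

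A further 87 genes of the adhesion pathway that are not among the 40 were examined as 1 list, and 86 were tested. None passed 10% FDR by edgeR's quasi-likelihood test (10 at an unadjusted p under 0.05, and 1 of 86 by DESeq2), 9 were higher and 1 lower at an unadjusted p under 0.05 (7.38% and 2.81% over all genes), and the median log2 difference was 0.05, with 55 above 0 and 31 below. The relatives and signalling partners of paxillin gave 5 of 23 higher and 0 lower, read against the same shares. Git1 and Git2 encode adaptors that bind paxillin directly, and Arhgef7 encodes beta-PIX, the exchange factor that GIT proteins carry. Git1 was at 26.6 to 30.8 CPM in controls (median 29.3) and 30.2 to 37.7 in AZ6983 mice (median 32.4), with 5 of 6 past the highest control and a log2 difference of 0.20 (SE 0.0627). Git2 was at 35.8 to 44.0 CPM (median 40.1) and 41.6 to 53.5 (median 45.6), with 4 of 6 above and a difference of 0.20 (SE 0.0695). Arhgef7 was at 58.0 to 71.8 CPM (median 64.8) and 66.6 to 77.5 (median 71.7), a difference of 0.16 (SE 0.0593).

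The other 2 of the 5 were Elmo1, of the Rac exchange factor that acts downstream of p130Cas, with 0.26 (SE 0.106), and Crkl, an adaptor that binds paxillin and p130Cas, with 0.14 (SE 0.0623). Their adjusted p-values and those of the GIT genes and Arhgef7 lay between 0.447 and 0.475 (edgeR quasi-likelihood test, Benjamini-Hochberg). With the share of reads outside genes in the model, none of the 5 reached an unadjusted p of 0.05. That share itself differed between the groups, so this fit cannot tell the 2 apart. With 1 mouse left out the threshold was missed in 7 of 12 fits for Crkl, 5 for Elmo1 and 2 for Arhgef7, and in 0 for Git1 and Git2. Tgfb1i1 and Lpxn, the 2 paralogs of paxillin, were at 58.3 to 83.4 CPM in controls and 61.0 to 79.7 in AZ6983 mice, and at 3.14 to 5.86 and 3.60 to 7.10, with log2 differences of 0.03 (SE 0.0956) and 0.20 (SE 0.190).

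Of 11 partners in integrin activation and the ILK complex, Apbb1ip, which encodes the talin recruiter RIAM of blood cells, had a difference of 0.61 (SE 0.210) and Parvb, beta-parvin, 0.55 (SE 0.197), each with 5 of 6 AZ6983 mice past the highest control. Their highest mice were A4 and A3. Without A3 and A4 the values were 0.56 (SE 0.179) and 0.40 (SE 0.134), and with the share of reads outside genes in the model 0.29 (SE 0.275) and 0.40 (SE 0.285), neither of which reached an unadjusted p of 0.05. Of 4 further integrins tested, Itga2b, the platelet alphaIIb chain, was at 2.86 to 7.11 CPM in controls (median 3.21) and 3.17 to 57.2 in AZ6983 mice (median 5.85), with A3 at 57.2 and a difference of 1.92 (SE 0.699), which was 0.57 (SE 0.348) without A3. It is itself 1 of the 5 platelet markers. The 23 zyxin relatives and actin partners gave 0 in either direction. Of 25 ligands, Fbn1 (fibrillin 1) was higher, with 0.32 (SE 0.146), and Ibsp (bone sialoprotein) lower, with -2.99 (SE 0.808). Fbn1 missed the threshold in 9 of 12 fits with 1 mouse left out, was 0.20 (SE 0.124) without A2 and -0.03 (SE 0.165) with the share of reads outside genes in the model. Ibsp ran from 0.435 to 11.2 CPM in controls (median 1.30) and 0.286 to 0.755 in AZ6983 mice (median 0.521), and is also a gene that the study listed from these mice. The adjusted p-values of Apbb1ip, Parvb, Itga2b, Fbn1 and Ibsp lay between 0.447 and 0.487 (edgeR quasi-likelihood test, Benjamini-Hochberg).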

How the data were processed

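Total RNA of the thoracic aorta of 12 mice was sequenced by the authors in paired-end mode after ribosomal depletion. The authors deposited raw counts per gene symbol in 1 table (25284 genes). The submitters' processing notes name CASAVA 1.8.2, STAR 2.5.2b, HTSeq 0.6.1p1 and mm10, and the annotation and strand setting are not given in the sources used here. Unspliced RNA adds to such counts. The 3 rows that name no gene entered neither library sizes nor tests. They held reads assigned to no gene, here called reads outside genes (8.02% to 14.9% of reads), reads with more than 1 alignment (18.1% to 23.2%) and ambiguous reads (0.606% to 0.698%).

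Groups came from the sample labels. AZ6983 was compared with control in edgeR 4.0.16 (R 4.3.3) with TMM normalization, filterByExpr (15857 genes) and the quasi-likelihood test without covariates. P-values were adjusted by Benjamini-Hochberg over all genes at 10% FDR, the threshold of the study. Each SE is the size of the log2 fold change over the square root of F, and 95% intervals use the t distribution with 10 degrees of freedom. CPM values are scaled by TMM. With 6 mice a group, p-values measure the spread between mice, and the precision of a gene falls with its count. The exact permutation test used the 924 assignments of mice to groups (smallest p 0.00216). Exon lengths and positions came from GENCODE M21 by symbol, and promoters from RefSeq (GRCm38.p6, 29 of 40 genes matched).

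Alternatives were DESeq2 1.42.0, limma-voom (limma 3.58.1), RLE scaling, no filter, a mean of at least 50 counts, the share of reads outside genes in the model and each mouse left out. The fit without A3 and A4 was chosen after seeing the data. The edgeR, limma-voom and DESeq2 fits at their main settings were tested on simulated counts, and the other steps were not. The members and lists were chosen with earlier results of these data known. Every gene of the list is named. Pxn, genes with an unadjusted p under 0.05, genes whose groups do not overlap and the most counted gene of each role are given with SE and adjusted p, and of the other adhesion genes those with an unadjusted p under 0.05. Tgfb1i1 and Lpxn, and some further SEs, were added after their values were seen.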

Additional observations from a re-analysis of the deposited data

Results flagged for a closer look

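Single mice stood far from the rest of their group in 7 of 78 groups of 6 examined (38 genes and the share of reads outside genes, in 2 groups), by Dixon's ratio at the 95% level on log2 CPM with a prior count of 2. Chance flags about 1 group in 20, or 3.9 here. Control C6 was high for Tln1 (9.77, the others 9.23 to 9.42), Itga9 (9.15, the others 8.51 to 8.74) and Bcar1 (4.55, the others 4.02 to 4.20). Among AZ6983 mice, A2 was high for Itga5 (7.33, the others 6.38 to 6.71) and Bcar1 (4.49, the others 4.21 to 4.24). A5 was low for Itga8 (10.8, the others 11.4 to 11.6) and Itgb1 (9.90, the others 10.3 to 10.5), the 2 subunits of the alpha8 beta1 receptor, and its smooth muscle markers were also the lowest of the 12 mice (10513 CPM).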

How the results depend on the processing

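The count of all genes at 10% FDR was 92 with DESeq2 (65 higher, 27 lower) against 0 with edgeR, and 0 to 27 when 1 mouse was left out, the 27 (5 higher, 22 lower) without A5 and 1 each without C6 and without A1. DESeq2 called 1 of the adhesion genes (Pxn, adjusted p = 0.00777) and 1 of the other adhesion genes (Ibsp, lower). The share of reads outside genes in the model left 467 genes at an unadjusted p under 0.05 (297 higher, 170 lower) in place of 1616, 1 adhesion gene (Pxn) in place of 5, and 5 other adhesion genes (1 higher, 4 lower) in place of 10. Without a filter 8 adhesion genes passed (7 higher, 1 lower), adding Fermt1, Fermt3 and Lims1, where 6.45% of 25284 genes were higher and 2.9% lower. Leaving out 1 mouse gave 1046 to 2233 genes (1046 without C1, and 937 higher and 1112 lower without A5), 4 to 9 adhesion genes and 7 to 17 other adhesion genes, and 1 to 2 adhesion genes whose groups do not overlap, with the 9, 17 and 2 (Pxn and Bcar1) without C6. Over all genes of the fits with 1 mouse left out, 4.63% to 9.38% were higher and 1.74% to 6.95% lower, and 0.48% to 1.39% had no overlap. Without C6 these were 8.51%, 3.43% and 1.3%. The median log2 difference of the adhesion genes, 0.05, ran from -0.0022 (without A2) to 0.097 (without C6). With the share of reads outside genes in the model it was -0.017. Each value differed from 0.05 by less than the spread between mice, a bound that also admitted a change of sign. That bound therefore does not show that the median was stable. The difference in the share of reads outside genes, 2.71 points, ran from 2.28 to 3.23. Of 722 values of single genes under the alternatives, 663 kept their sign, and 18 of 38 genes kept it in all. Pxn ran from 0.22 to 0.27 with 1 mouse left out. The SE of Itgal, with 48 to 162 counts in controls, was 0.509 with all mice and 0.345 without A4. No paired analysis was possible because the mouse numbers of the groups are not shared.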
